A study of Homo sapiens with 2 samples.

Results

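Interferon regulatory factor 1 (IRF1) was mapped by ChIP-seq in NB4, an established acute promyelocytic leukemia cell line that carries the PML-RARA fusion. There was 1 library from cells given all-trans retinoic acid (ATRA) for 4 hours and 1 from control cells given the solvent DMSO. The 1 deposited list analysed here holds 1986 summits of the ATRA library, each a single base placed on hg38 with a peak score, a gene annotation and its distance to a transcription start site (TSS). The subject here is the intronic summits outside repeats. They were taken as summits annotated in an intron, more than 1000 bp from the nearest TSS and with no repeat named in the detailed annotation. Summits on chromosome 21 below position 10000000, where a dense block lies, were left out. Of 698 intronic summits, 49 were in that block, 71 lay within 1000 bp of a TSS and 168 were in a repeat, which left 410 of 1986 summits, on 23 chromosomes. No expression was measured, so the cell type could not be checked against its markers. With 1 list from 1 library no difference can be tested against replicate error. Shares carry 95% Wilson intervals and medians 95% binomial intervals, which describe the number of summits and not the spread between cultures.

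IRF1 is a transcription factor of the interferon response that is itself induced by interferon and, in promyelocytic leukemia cells, by retinoic acid. Its DNA-binding domain contacts GAAA repeats, as in the interferon-stimulated response element found in promoters of antiviral and antigen presentation genes. Introns, above all the long introns near the 5′ end of a gene, are known to hold enhancers and alternative promoters, and an intronic site may act on its host gene or on a neighbour.

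Sequence could be shown for the few summits that fell inside a RefSeq promoter window (GRCh38.p14, 250 bases before to 50 after a start). Of 393 members searched, 9 lay in such a window (2.29%, 1.21 to 4.29), of which 3 belonged to protein-coding genes and 6 to long non-coding RNAs. For all of these the deposited annotation gave a start more than 1000 bp away. The 6 stretches below are shown because they hold a GAAA-type element or mark an internal start of the host. Each runs up to 60 bases to either side of the summit, ends before the start, and is read 5′ to 3′ on the strand of the named gene. Capitals mark a match to the GAAA pair, spelled GAAA, any 2 bases and GAAA again, or, in ETV7-AS1, to its composite with an ETS core, spelled GGAA, any 2 bases and GAAA. Both strands were searched, and both motifs can overlap.
SLC37A1, chr21:42513761-42513851, plus strand: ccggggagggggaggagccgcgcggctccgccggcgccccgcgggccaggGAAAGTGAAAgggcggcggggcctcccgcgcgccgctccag
NFIB, chr9:14322456-14322576, minus strand: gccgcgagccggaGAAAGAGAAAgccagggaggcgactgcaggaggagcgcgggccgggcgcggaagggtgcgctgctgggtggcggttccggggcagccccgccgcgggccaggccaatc
LOC124902495, chr10:103660096-103660159, plus strand: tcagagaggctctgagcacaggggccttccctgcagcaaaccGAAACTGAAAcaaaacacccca
LOC124903347, chr14:74514667-74514787, plus strand: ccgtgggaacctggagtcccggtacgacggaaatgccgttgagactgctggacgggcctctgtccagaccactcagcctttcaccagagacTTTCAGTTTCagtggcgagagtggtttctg
ETV7-AS1, chr6:36386509-36386619, plus strand: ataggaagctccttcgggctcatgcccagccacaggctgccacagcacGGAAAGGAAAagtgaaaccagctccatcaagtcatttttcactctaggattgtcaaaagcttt
ATXN7, chr3:63912022-63912111, plus strand: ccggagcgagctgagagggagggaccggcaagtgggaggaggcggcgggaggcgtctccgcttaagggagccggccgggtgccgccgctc

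In SLC37A1, an endoplasmic reticulum sugar-phosphate transporter gene, the summit (score 34.5) lay in intron 2 of 20 by the deposited annotation, 14189 bp from its listed TSS, but 31 bp before a RefSeq start of the same gene. The centre of the GAAA pair was 5.5 bases from that summit. The stretch of LOC124902495 carries a summit with a score of 94.2, in intron 8 of 13 of SH3PXD2A, a scaffold gene of invadopodia. That summit was 4 bp before the start of the non-coding RNA and 13.5 bases from the centre of its element. In NFIB, a nuclear factor I gene, the summit (17.5) was 129 bp before an internal start and 42.5 bases from the element. The summit of the LOC124903347 stretch (33.0), in intron 18 of 35 of LTBP2, was 35.5 bases from an element on the opposite strand. The summit of ETV7-AS1 (14.4), in intron 1 of the ETS factor gene ETV7, was 7.5 bases from the composite element. ATXN7, which encodes a subunit of the SAGA coactivator complex, had its weaker summit (10.4) 30 bp before an internal start, with no match in the stretch shown. The GAAA pair was present in 5 of the 9 full windows, and in 4 it lay within the 60 bases around the summit. It occurred in 3.57% of all 35116 promoter windows and in 38.2% of the 293 windows that held another summit of the list. A match describes letters only, and no difference was tested in so few windows. The composite was in 2 of the 9, against 2.82% of all windows and 15.02% of those with another summit. AGGTCA, a core element of retinoid receptors, and TGACTCA, the AP-1 element, were in 0 of the 9 windows. They were in 13.8% and 4.95% of all windows, and in 11.9% and 4.78% of those with another summit. From 9 windows no absence can be read. TGTGGT, the RUNX core, was in 3, against 13.1% of all windows and 9.90% of those with another summit. A further count used the starts without the window limits. It found 23 of the 393 members (5.85%, 3.93 to 8.63) within 1000 bp of a RefSeq start in a table that is not complete, although the deposited distance was larger.

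Intron 1 was the most frequent location. It held 183 of the 410 summits (44.6%, 39.9 to 49.5), and intron 2 held 70 (17.1%, 13.7 to 21.0). Introns 3 to 5 held 66 and later introns 91, up to intron 50 of the annotated transcript. The annotated transcripts had a median of 10 introns. Intron numbers refer to the transcript named in the annotation, which may start inside its gene. In transcripts with at least 10 introns, intron 1 held 73 of 211 summits (34.6%, 28.5 to 41.2). The last intron of any transcript held 40 of the 410. Of the 410, 402 were in transcripts with at least 2 introns, and the others count both as intron 1 and as last intron. Intronic summits in repeats were in intron 1 in 45 of 168 cases (26.8%, 20.7 to 33.9), an interval that does not meet that of the members. Introns differ in length and repeat content, and the part of these in the shares was not tested.

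The summits leaned towards the 5′ part of their hosts. For the 323 members whose host strand was given, the median position was 38.1% of the way from the 5′ to the 3′ end of the gene (34.1 to 45.3). Split into 5 equal stretches from the 5′ end, the hosts held 83 summits in the first (25.7%, 21.2 to 30.7), then 82, 68 and 44, and 46 in the last (14.2%, 10.8 to 18.5). The intron 1 summits alone had a median position of 21.4%, and those in later introns 56.8%. Both ranged widely, from 0.795% to 93.4% in intron 1 and from 0.594% to 97.95% in later introns.

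**Figure D1:**
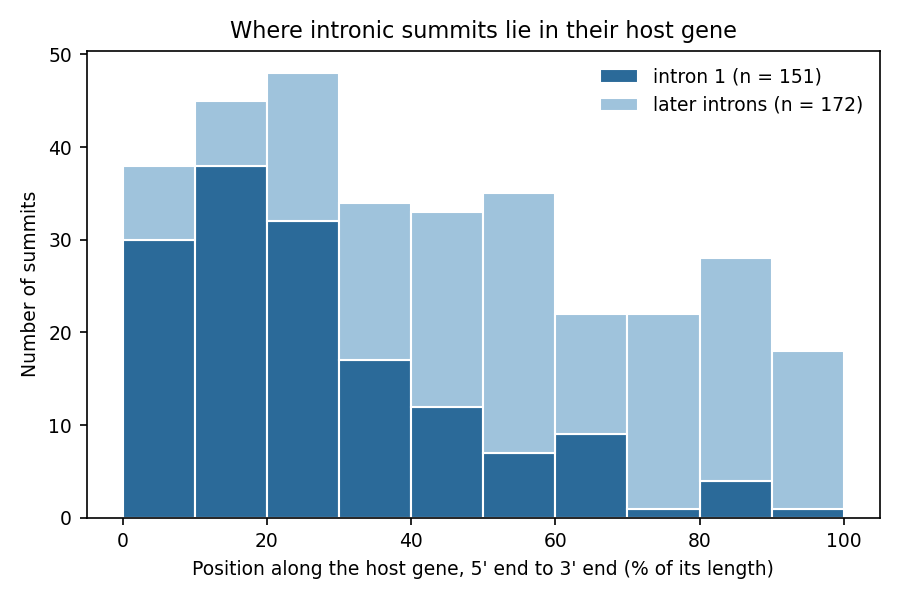
Number of intronic summits (vertical axis) by position along the host gene in percent of its length (horizontal axis), stacked by intron 1 (dark, n = 151) and later introns (light, n = 172). Summits in intron 1 crowd the 5′ part, and later introns fill the 3′ part.

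Distances to the nearest TSS ran from 1012 to 510719 bp, with a median of 20388.5 bp (15904 to 26420) and quartiles of 5583 and 51542 bp. Within 10 kb lay 147 members (35.9%, 31.4 to 40.6), and 43 were beyond 100 kb (10.5%, 7.88 to 13.8). Intergenic summits outside repeats had a median distance of 27536 bp (23880 to 34115, n = 425), and 24.9% of them lay within 10 kb (21.1 to 29.3). The members just inside the limit of 1000 bp were those of NOD2, a sensor of bacterial cell walls, at 1012 bp (score 43.0), and of the signal transducer gene STAT5A at 1024 bp (21.3). Just outside it were CYB561 at 994 bp (52.0) and POLR3D at 984 bp (36.2). The farthest members were a pair in intron 8 of 8 of the large fragile-site gene WWOX, at 510719 and 436806 bp from the TSS of MAF (scores 13.4 and 24.6). They were followed by RAD51B (391248 bp), RBFOX1 (359707 bp) and MGAT4C (324907 bp).

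The share in intron 1 fell along the distance classes. It was 80.2% of 96 members at 1 to 5 kb (71.1 to 86.9), 52.3% of 109 at 5 to 20 kb, 28.4% of 162 at 20 to 100 kb and 6.98% of 43 above 100 kb (2.40 to 18.6). Intron 1 lies next to a TSS in every gene, so these shares are not independent of gene structure.

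**Figure D2:**
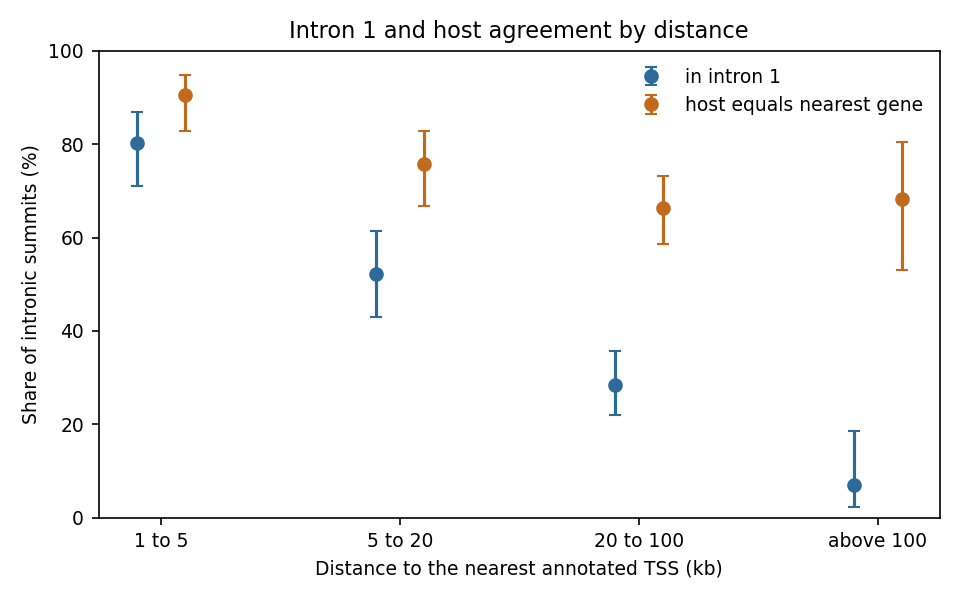
Share of intronic summits (vertical axis, percent) in 4 classes of distance to the nearest TSS in kb (horizontal axis), for location in intron 1 (blue) and for a host gene equal to the nearest gene (orange), with 95% Wilson intervals as bars. The share in intron 1 goes from 80.2% to 6.98%, and the share with host equal to nearest gene from 90.4% to 68.3%.

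The peak score of the members, the authors' own value with no stated scale, ranged from 9.34 to 285 with a median of 24.6 (22.1 to 26.4) and quartiles of 17.9 and 41.5. The whole list had a median of 25.2. Intergenic summits outside repeats had 24.8 (22.7 to 26.8) and intronic summits in repeats 25.6 (22.4 to 30.4), so these intervals overlap. Summits within 1 kb of a TSS had 27.9 (25.4 to 30.8, n = 500), an interval that also overlaps that of the members. Of the 100 highest scores of the list 16 were members (3.90% of the members, 2.42 to 6.24), while 48 were summits within 1 kb of a TSS (9.60% of those, 7.32 to 12.5). The score is stepped: the 410 members carried 291 distinct values.

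Scores varied little with intron number. The median was 24.8 in intron 1 (21.7 to 29.6), 24.2 in intron 2 (20.4 to 29.7), 22.0 in introns 3 to 5 (19.99 to 27.0) and 25.2 in later introns (21.7 to 32.5). At the upper end, 16 of the 24 members with a score above 100 were in intron 1, which is 8.74% of the intron 1 members (5.45 to 13.7), against 8 of the other 227 (3.52%, 1.80 to 6.80). By distance, the median was 23.3 at 1 to 5 kb, 25.2 at 5 to 20 kb, 22.7 at 20 to 100 kb and 26.4 above 100 kb (21.7 to 30.9).

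**Figure D3:**
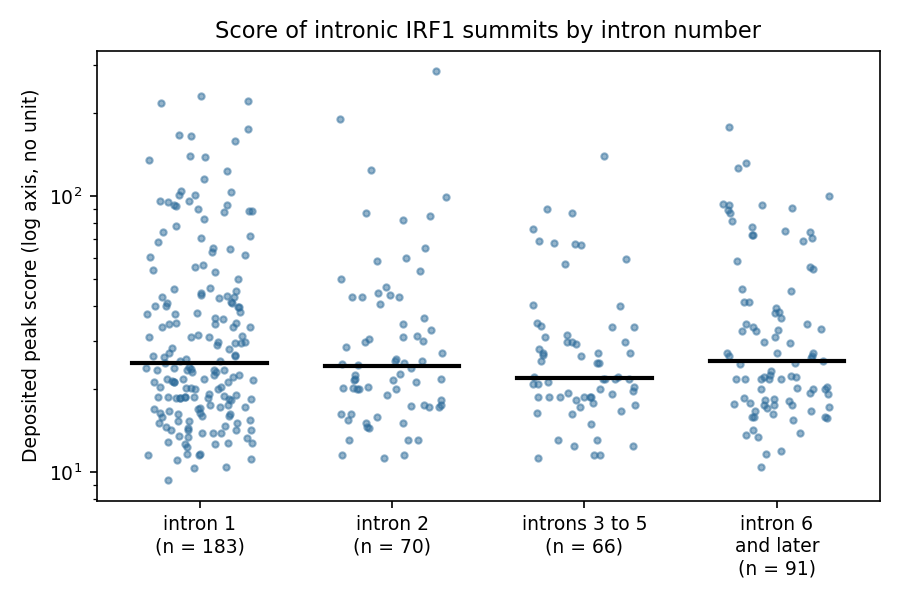
Peak score of each intronic summit (vertical log axis, no unit) in 4 classes of intron number (horizontal axis), with the class median as a black line. The medians lie between 22.0 and 25.2, and all 4 classes span the range from near 10 to above 100.

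The highest members named genes of several kinds. The top one (285) lay in intron 2 of 10 of ITPK1, an inositol phosphate kinase gene, on chromosome 14 at base 93103862 and 12056 bp from the TSS, and exceeded 99.6% of the whole list. RGS3, a regulator of G protein signalling, followed with 231 at chromosome 9 position 113581992, in intron 1 of 7 and 1115 bp from the TSS. This summit lay 89.7% of the way along RGS3, so the annotated transcript starts inside the gene. RP1L1, known as a photoreceptor gene, had 219 in intron 1 of 3 (chromosome 8 position 10630561). None of these 3 belongs to the interferon or antigen presentation lists used here.

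The death effector BAK1, which forms pores in mitochondria, had 167 in intron 1 of 5 at chromosome 6 position 33578739, 1554 bp from its TSS. APOL3, an interferon-induced apolipoprotein L gene, had 159 in intron 1 of 4 at chromosome 22 position 36156926. The formin gene FMNL1, an actin regulator of blood cells, had 166 in intron 1 of 26 at chromosome 17 position 45227250. The strong ATXN7 summit (175, chromosome 3 position 63912379) lay in a CpG island 267 bp past the internal start described above, 297 bp from the weak one. DENND10 (179), a regulator of endosomes, was marked in intron 6 of 7. RHOXF1-AS1 (190.2) is a non-coding antisense gene of chromosome X whose summit was assigned to LINC01402.

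Further members of the top 15 were CLNK (139.9), an adaptor of immune receptor signalling, HMGB1 (139.6), a chromatin protein and danger signal, TMEM229B (139), PXDNL (135) and CFAP54 (132). Of the 15, 10 were in intron 1, 6 lay within 10 kb of a TSS and 13 had a host that was also the nearest gene. In 2, APOL3 and TMEM229B, the same gene had a start-site summit as well.

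The host gene and the assigned gene were not always the same. The transcript named in the annotation could be matched to a RefSeq gene for 399 members, in 370 distinct hosts, and 11 named accessions not found in the table. Host and nearest gene agreed for 298 of 399 (74.7%, 70.2 to 78.7). Agreement was 89.6% in intron 1 (164 of 183, 84.4 to 93.3), 76.5% in intron 2, 75.9% in introns 3 to 5 and 42.2% in later introns (38 of 90, 32.5 to 52.5). It was 90.4% at 1 to 5 kb from a TSS (82.8 to 94.9) and 66.2% at 20 to 100 kb (58.5 to 73.2). In intronic summits of repeats it was 71.3% (64.0 to 77.6). The nearest gene is set by distance to a TSS, so agreement is not independent of intron number or distance.

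The 101 members that disagreed lay late in their hosts, at a median of 71.1% of the gene (64.2 to 82.1), against 29.0% (25.8 to 34.97) for those that agreed. A summit far from the 5′ end of its host is more open to a nearer TSS of another gene, so this contrast follows in part from the assignment. The median score of the 101 was 23.3 (21.7 to 27.0), against 25.01 (22.1 to 27.99) for those that agreed. In 87 of the 101 the host was protein-coding, against 370 of all 399 matched members. The nearest gene was not protein-coding in 53 of the 101, against 72 of all 410 members. A protein-coding host cannot equal such a nearest gene, so these shares are not independent of the disagreement. The spans of both genes overlapped in 57 of the 101, while the summit itself lay inside the span of the nearest gene in 5.

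The highest of them were RHOXF1-AS1 and LINC01402, then CFAP54 and NEDD1. The CFAP54 summit was in intron 49 of 67, 187028 bp upstream of NEDD1, a gene of microtubule nucleation. A summit in intron 1 of INHBA-AS1 (105) lay 2095 bp upstream of INHBA, which encodes an activin subunit. One in intron 13 of 17 of SEMA4D (101), a semaphorin of immune cells, was assigned to SECISBP2, a selenoprotein synthesis gene, 69563 bp away. The summit of ZHX2 (99.2), a zinc finger homeobox repressor gene, was assigned to DERL1, 123262 bp away. KLHL6 (95.4), a ubiquitin ligase adaptor of B cells, and SH3PXD2A (94.2) were each hosts of a summit assigned to their antisense gene. SMOC1 (93.4) hosted one assigned to SLC8A3.

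A further 23 members lay upstream of a start of their own host, in an intron of a longer transcript (5.61%, 3.77 to 8.28). Their median distance was 15904 bp and their median score 26.1 (19.98 to 34.4). They included MEF2D (103, at -2199 bp), a MADS-box factor gene, SAMSN1 (67.4), an adaptor of blood cells, and the ETS factor gene ELF1 (37.4, at -2560 bp). The stress-response factor gene ATF3 (26.4, at -12100 bp), NFIB, SMAD3 (13.8) and both summits of RUNX1 were also among them.

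Few members belonged to a gene with a start-site summit. For 21 of 410 (5.12%, 3.37 to 7.70) the nearest gene also had a summit within 1 kb of its TSS. The share was 5.41% for intergenic summits outside repeats (3.63 to 7.99) and 4.76% for intronic summits in repeats (2.43 to 9.11). Within 10 kb of a TSS it was 5.44% for the members (8 of 147, 2.78 to 10.4) and 12.3% for the intergenic ones (13 of 106, 7.31 to 19.9), with overlapping intervals. All members more than 100 kb away, 43 in number, lacked a start-site partner, with an upper Wilson limit of 8.20% that lies above the 5.12% of all members. At this distance 1 of 81 intergenic summits outside repeats and 0 of 20 intronic summits in repeats had a partner. Seen from the genes, 405 of 19974 protein-coding genes had a start-site summit, and 23 of these (5.68%) hosted or were nearest to a member, against 1.95% of all protein-coding genes.

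In 13 of the 21 pairs the intronic summit scored higher than the start-site summit, and in 8 lower. The nearest gene was also the host in 20 of the 21. The other pair was a summit in intron 2 of SP2-AS1 and the start-site summit of SP2. TMEM229B had 139 in the intron and 20.2 at the start. B2M, the light chain of MHC class I, had 101 in intron 1 of 3, 1196 bp from the TSS, and 49.8 at the start. UBE2L6, the conjugating enzyme of ISG15, had 64.7 and 16.5, and SYNPO2, an actin-binding protein gene, 93.2 and 38.0. APOL3 had 159 and 123.

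The order was reversed in APOL2 (46.5 in the intron, 233 at the start), in the Polycomb gene PCGF5 (33.6 and 159), in the lipid acyltransferase gene AGPAT3 (29.4 and 128) and in PLXNC1, a semaphorin receptor (15.5 and 135). TRIM14, an adaptor of antiviral signalling, was close to even with 47.1 and 41.0. CALCOCO2, an autophagy receptor for bacteria, had 33.6 and 37.4. The median score of the 21 members was 33.6 (23.1 to 64.7), against 23.8 (21.8 to 25.8) for the members without a partner.

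**Figure D4:**
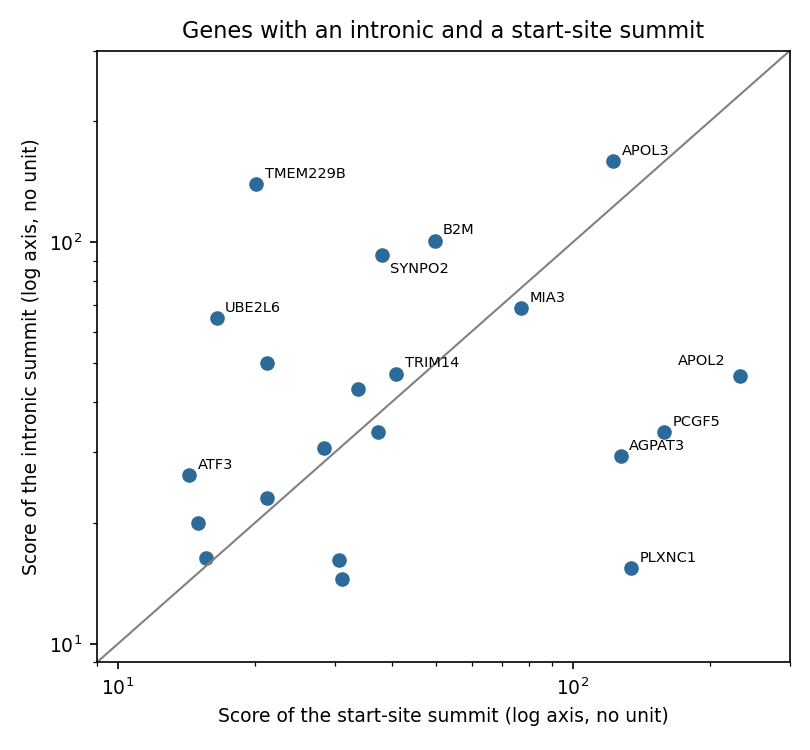
Score of the intronic summit (vertical log axis) against the highest-scoring start-site summit of its nearest gene (horizontal log axis) for 21 genes, neither with a unit. The grey line marks equal scores: 13 points lie above it, with TMEM229B farthest above, and 8 below it, with PLXNC1 farthest below.

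Most hosts held a single member. Of the 370 hosts 344 had 1, 23 had 2 and 3 had 3 members. FMNL1 had its 3 within 2989 bp of intron 1, with the score of 166 flanked by 19.98 and 10.4. CXXC5, a retinoid-inducible zinc finger gene, had 3 within 5695 bp of intron 1, with 15.01, 12.7 and 21.6. In 15 of the 26 hosts with several members these were more than 10 kb apart. Pairs within 1 kb were found in 4, ATXN7, LYSMD2, CCDC57 and CORO7-PAM16, the last a read-through transcript. The kinase gene PRKCD, known for its role in myeloid differentiation and cell death, had 86.9 and 27.1 in intron 2. No other summit of the list lay within 200 bp of a member, and for 40 (9.76%, 7.25 to 13.0) another lay within 10 kb.

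Hosts were long genes. The 370 hosts, some of them non-coding, had a median span of 129 kb (114 to 145), against 24.2 kb for all protein-coding genes. Hosts of intronic summits in repeats had a median of 111 kb (94.8 to 137), an overlapping interval. Of the 19974 protein-coding genes 342 hosted a member (1.71%), from 0.323% of genes up to 20 kb to 7.81% of those above 200 kb. Per summed gene length the order was different. There were 38.7 members per 100 Mb in genes up to 20 kb, 37.6 at 20 to 50 kb, 32.2 at 50 to 100 kb, 35.8 at 100 to 200 kb and 20.4 above 200 kb. Short genes hold fewer positions more than 1000 bp from a TSS, which was not corrected for.

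The gene lists were read against the 1.95% of all protein-coding genes that hosted or were nearest to a member. Of 469 listed genes in 14 lists 24 had one. The list of interferon-stimulated genes had 3 of 65 (4.62%), APOL3, APOL2 and TRIM14, whereas 39 of the 65 had a start-site summit. This list is a selection, and UBE2L6, described above, is not in it. The MHC class I list had 1 of 22, B2M, and 13 with a start-site summit. The median score over the members of the interferon-stimulated list was 47.1, and over those of all protein-coding genes 24.8.

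Interferon signalling genes had 3 of 31. STAT5A hosted its own summit. The summit nearest to IRF4, a lymphoid relative of IRF1, lay 110226 bp away in intron 25 of 29 of EXOC2 (21.7). The summit assigned to IRF1 itself (12.5) was 24257 bp from its TSS, in intron 3 of 3 of a transcript not found in the table. Cell death genes had 3 of 30: BAK1, the anti-apoptotic BCL2L1 (85.1, in intron 2 of 2, assigned to COX4I2) and the death receptor FAS, whose summit (37.6) was in intron 1 of the neighbouring ACTA2, 15382 bp upstream of FAS. The retinoic acid response list had 2 of 27, CXXC5 and ASB2, a ubiquitin ligase subunit (124, intron 1 of 9).

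Transcription factors of blood cells had 5 of 47 (10.6%) and no start-site summit in any. They were ELF1, ETS1 (21.3, intron 1 of 3, 39712 bp from the TSS), RUNX1 (19.98 and 13.0), EBF1, a B cell factor (21.7, 224376 bp), and TCF4 (18.7), whose summit was assigned to the microRNA gene MIR4529. Their median score was 20.6. The median span of this list was 33.5 kb, above the 24.2 kb of all protein-coding genes, and longer genes hosted members more often. Cell cycle genes had 2 of 34, CCND1 (102, in a CpG island in intron 1 of 4) and CDK6 (40.1). Adhesion and cytoskeleton regulators had 2 of 35, MYO1F (18.6) and WASF2 (16.3, assigned to GPR3). Cytokines and receptors had 1 of 56, IL2RA, the alpha chain of the interleukin 2 receptor (88.8, intron 1 of 5), and innate sensing had 1 of 38, NOD2. Granulocyte genes had 0 of 36, among them MPO, ELANE, PRTN3, AZU1 and CTSG, the primary granule genes of promyelocytes. The median span of the granulocyte list was 12.6 kb, and only 0.323% of protein-coding genes up to 20 kb hosted a member. The T cell and B cell lists had 0 of 18 and 0 of 12, and the erythroid list 1 of 18, ANK1 (25.7). The median spans of these lists were 32.3, 11.1 and 13.4 kb. Counts this small were not tested, and 1 gene more or less moves the share of a list by more than the background of 1.95%, except in the 2 longest lists.

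CpG islands held 29 members (7.07%, 4.97 to 9.97), against 7.76% of intergenic summits outside repeats (5.58 to 10.7). Of these 29, 16 were in intron 1. Their median score was 34.5, with a wide interval (16.9 to 46.1) that holds the 23.9 of the other members. After ATXN7 the highest were BAZ1A (124), a chromatin remodelling subunit gene, CCND1 (102), the adhesion receptor gene ADGRD1 (93.2), the Groucho-type corepressor gene TLE4 (88.2) and the calcineurin inhibitor gene CABIN1 (74.98, assigned to SUSD2). None of the 29 had a nearest gene with a start-site summit (upper Wilson limit 11.7%).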

How the data were processed

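IRF1 ChIP-seq summits of 1 NB4 library treated with ATRA were analysed, and the control library's own values were not used here. The submitters' processing notes name Bowtie2 2.2.9, MACS 1.4.2 and hg38 without a role. Per the file headers, HOMER's annotatePeaks.pl ran on a summits file. The score per summit is the authors' deposited value. Not given in the sources used here were its scale, the background and threshold of peak calling and the treatment of duplicate or multiply mapped reads. Read depth per summit is unknown. The signed distance to the TSS was also deposited by the authors.

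Members were selected by annotation, distance and detailed annotation. Host genes came from the transcript accession, matched without version to RefSeq (GRCh38.p14), and nearest genes from the deposited Entrez identifier, found for all 410. Strand and promoter sequences came from RefSeq promoter windows. Named genes are the hosts and nearest genes of the 15 highest members, hosts of at least 3, the 5 members nearest to and farthest from a TSS, members of the 14 lists, and the 8 highest pairs that disagree. Other genes, among them those of start-site pairs, CpG islands, promoter windows and internal starts, were chosen after their values were seen. Of the genes the rule names, 2 are not reported here. Members and lists were chosen with earlier results of these data known. No significance test was run, because summits of 1 library are no replicates. Parsing, motif search and intervals were tested on simulated data. Python 3.11.15, pandas 2.3.3, numpy 2.4.6, scipy 1.17.1 and matplotlib 3.10.9 were used.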

Additional observations from a re-analysis of the deposited data

How the results depend on the processing

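Of 35 alternative values, 27 stayed within the interval of the reported value, or within 1.5 times the count. Among the 27 were the values with summits under 200 bp apart merged. These could not differ, because no other summit lay within 200 bp of a member. With only scores at or above the list median, 198 members were left and their median score was 43.0, by construction. With a distance above 5000 bp, the share in intron 1 was 33.8%, the median distance 32053 bp and the share with host equal to nearest gene 69.8%, since members near a TSS are removed. With repeats included intron 1 held 39.4%, and in transcripts of at least 10 introns 34.6%. Counting start-site summits within 5000 bp raised the share of members with such a partner from 5.12% to 8.54%. The limit to transcripts of at least 10 introns, the pairing of retired accessions inside the deposited table and the omission of members near a RefSeq start were chosen after seeing the data. Matching genes by symbol gave 73.7% agreement of host and nearest gene. No paired analysis was possible because there was a single library on either side, which also meant that no replicate could be omitted. Motifs around all summits were not run, since sequence was used only where a RefSeq promoter window held the summit.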

Other observations

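Non-coding hosts form a group not described above. Of the 399 matched members 28 lay in long non-coding RNA genes and 1 in a transcribed pseudogene. The median score of these 29 was 21.2 (19.98 to 30.8), against 24.8 (22.4 to 27.0) for protein-coding hosts, and 12 of the 29 were in intron 1. After RHOXF1-AS1 and INHBA-AS1 the highest were MIR4435-2HG (82.7, chromosome 2 position 111464148) and CYTOR (69.1, chromosome 2 position 87486074). These 2 genes are known as copies of each other, and their summits lay at nearly the same distance from the listed TSS, 30967 and 30619 bp. How reads that match both copies were placed is not given in the sources used here, so both values are uncertain. JUN-DT, the divergent transcript next to the AP-1 gene JUN, had a summit with a score of 35.9 in a CpG island, 31234 bp from its TSS.

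For 72 of the 410 members the nearest gene was not protein-coding. In these the host equalled the nearest gene in 15 of 68 (22.1%, 13.8 to 33.3), against 283 of 331 (85.5%, 81.3 to 88.9) where the nearest gene was protein-coding. A protein-coding host cannot equal such a nearest gene, and only 29 of the 399 matched members had another kind of host. Many of the 72 nearest genes were microRNA genes, and no matched host was of that type. The agreement is therefore not independent of the annotation, and the part of the annotation in the low value was not tested. The median score of the 72 was 21.7 (19.99 to 26.4), against 25.01 (22.6 to 27.0) where the nearest gene was protein-coding.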
